A study of Mus musculus with 12 samples.

Results

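The 10 genes described here are the core genes of the circadian clock: *Arntl* (also called Bmal1) and *Clock*, *Per1*, *Per2* and *Per3*, *Cry1* and *Cry2*, *Nr1d1* and *Nr1d2*, and *Dbp*. They were selected on their symbols alone in the count table of 55421 genes, though the set was proposed with levels from these libraries in view. All 10 were found and passed the filter on low counts, which left 14460 genes for testing. Transcripts were sequenced from OT-I cells, which are CD8 T cells with a transgenic receptor for an ovalbumin peptide. These cells carried either the wild-type (WT) or the knockout (KO) form of *Rroid2*. WT and KO OT-I cells were transferred into host mice, which were infected with *Listeria monocytogenes* expressing ovalbumin (LM-OVA), and the transferred cells were sorted from the hosts' spleens. There were 6 groups with 2 libraries each, 12 in all, namely WT and KO short-lived effector cells (SLEC) 7 days after infection, WT and KO SLEC after 14 days, and WT and KO memory precursor effector cells (MPEC) after 14 days. All 6 groups share the transfer, the receptor and the infection. The sources used here do not give the age of the mice, the host strain, the sorting gates or the hour of collection. Hour of collection and group therefore cannot be told apart. No row carries the symbol *Rroid2*, and its level was not analysed here.

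In the clock of mammalian cells the proteins of *Arntl* and *Clock* pair and switch on the *Per*, *Cry*, *Nr1d* and *Dbp* genes through short sequences called E-boxes. The PER and CRY proteins then enter the nucleus and block that pair, while the NR1D proteins, also called REV-ERB, repress *Arntl* through ROR elements, which the ROR proteins use to activate it. DBP is a transcription factor that acts through D-boxes and carries the rhythm to output genes. T cells run this clock as other cells do, and levels of these transcripts change over the day, *Arntl* roughly opposite to *Nr1d1* and *Dbp*. A single collection time per library shows a level and no rhythm.

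The markers fixed for the populations followed the labels. All 5 CD8 T cell genes were present in every library, the 5 SLEC genes summed to 3493 to 6270 CPM (counts relative to the library total after scaling by TMM factors) in SLEC libraries and to 230 to 275 CPM in MPEC libraries, and the 6 MPEC genes summed to 132 to 574 CPM in SLEC libraries and to 2049 to 2701 CPM in MPEC libraries. Total counts per library ran from 7603551 to 14026594, so that 3 counts correspond to 0.190 to 0.412 CPM. The 10 mitosis genes summed to 911 to 2524 CPM in the 4 day 7 libraries and to 65.5 to 153 CPM in the 8 day 14 libraries. The summed level of 11 B cell genes was highest in WT SLEC on day 14 (390 and 1478 CPM) and ran from 19.6 to 250 CPM elsewhere, with up to 6 of the 11 at 0 in a library. The same group was highest for 8 myeloid genes (91.1 and 44.6 CPM, against 6.87 to 29.1 CPM elsewhere). It was also highest for 3 plasma cell genes (14.6 and 4.24 CPM, against at most 0.918 CPM elsewhere). The mitosis and B cell lists are given again beside the results they move with.

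All 10 are protein-coding genes, with positions here in GRCm38. *Nr1d1* (98767932 to 98775333, minus strand) and *Per1* (69095217 to 69109960, plus strand) lie on chromosome 11, and *Arntl* (113207465 to 113314126, plus strand) and *Dbp* (45705088 to 45710203, plus strand) on chromosome 7. *Nr1d2* lies on chromosome 14 (18204054 to 18239127), *Cry1* on 10 (85131700 to 85185064), *Per3* on 4 (151003652 to 151044665), *Cry2* on 2 (92403646 to 92434043), *Per2* on 1 (91415982 to 91459324) and *Clock* on 5 (76209868 to 76304792), all on the minus strand.

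Promoter windows around the start sites differed between these genes in which clock sequences they held as exact matches. Sites outside the windows were not searched. RefSeq promoters of GRCm38.p6 (250 bases before and 50 after each start) were found for 9 of the 10 genes, with no entry for *Per2*, and both strands were searched for the E-box CACGTG, the related E-prime box CACGTT, the D-boxes TTATGTAA and TTACGTAA, the ROR elements TAGGTCA and TGGGTCA, and the cAMP response element TGACGTCA. These motifs are in 7.17%, 4.71%, 1.05%, 6.48% and 1.8% of 32544 promoters in that order. Stretches from 4 genes are shown, because *Per3* and *Nr1d1* rose between the days, *Cry1* fell and *Per1* did not pass the test. Capitals mark the motif, positions count from the start site, and AACGTG is the E-prime box read from the other strand.
Per3, chr4:151044794-151044892, minus strand: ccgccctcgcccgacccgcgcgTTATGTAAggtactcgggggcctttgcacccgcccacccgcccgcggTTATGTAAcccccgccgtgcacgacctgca
Cry1, chr10:85185087-85185155, minus strand: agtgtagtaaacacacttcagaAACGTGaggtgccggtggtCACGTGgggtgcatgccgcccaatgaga
Nr1d1, chr11:98775378-98775427, minus strand: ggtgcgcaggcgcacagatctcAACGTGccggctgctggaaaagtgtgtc
Per1, chr11:69098761-69098810, plus strand: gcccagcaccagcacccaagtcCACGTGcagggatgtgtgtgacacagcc
*Per3* held 2 D-boxes, at -205 to -198 and at -158 to -151. *Cry1* held an E-box at -60 to -55 beside an E-prime box at -79 to -74, and *Nr1d1* an E-prime box at -28 to -23. The *Per1* E-box lay at -166 to -161 of the first of its 2 listed starts, inside the gene's span and outside annotated exons. *Cry2* held an E-prime box at -166 to -161, and the second of 2 *Arntl* starts was followed by the ROR element TAGGTCA at 31 to 37. None of these motifs was in the windows of *Nr1d2*, *Dbp* or *Clock*. These matches describe the letters in the windows, and no binding was measured.

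Among the 10 genes, *Cry1* transcripts were the most abundant per length of exon, and those of *Per2* and *Per3* the least. Over the 12 libraries the mean level was 13.9 ± 4.68 CPM per kb (SD, n = 12) for *Cry1*, 9.27 ± 2.50 for *Arntl*, 9.06 ± 1.57 for *Per1*, 7.22 ± 3.73 for *Nr1d2* and 4.16 ± 0.72 for *Clock*. It was 2.83 ± 1.42 CPM per kb for *Dbp*, 1.85 ± 0.57 for *Cry2*, 1.08 ± 0.82 for *Nr1d1*, 0.585 ± 0.443 for *Per2* and 0.511 ± 0.260 for *Per3*, all SD with n = 12. Neighbours in this order mostly overlapped, such as *Arntl* with *Per1* and *Per2* with *Per3*. The order also differed between populations. On day 7 *Cry1* stood clear of the second gene, at 19.1 ± 0.36 CPM per kb in WT SLEC (SD, n = 2) against 10.8 ± 2.83 for *Arntl*. In WT MPEC on day 14 *Per1*, at 9.84 ± 0.03 CPM per kb, and *Cry1*, at 9.51 ± 0.63, overlapped, and *Nr1d2* came next at 8.35 ± 0.31.

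**Figure D1:**
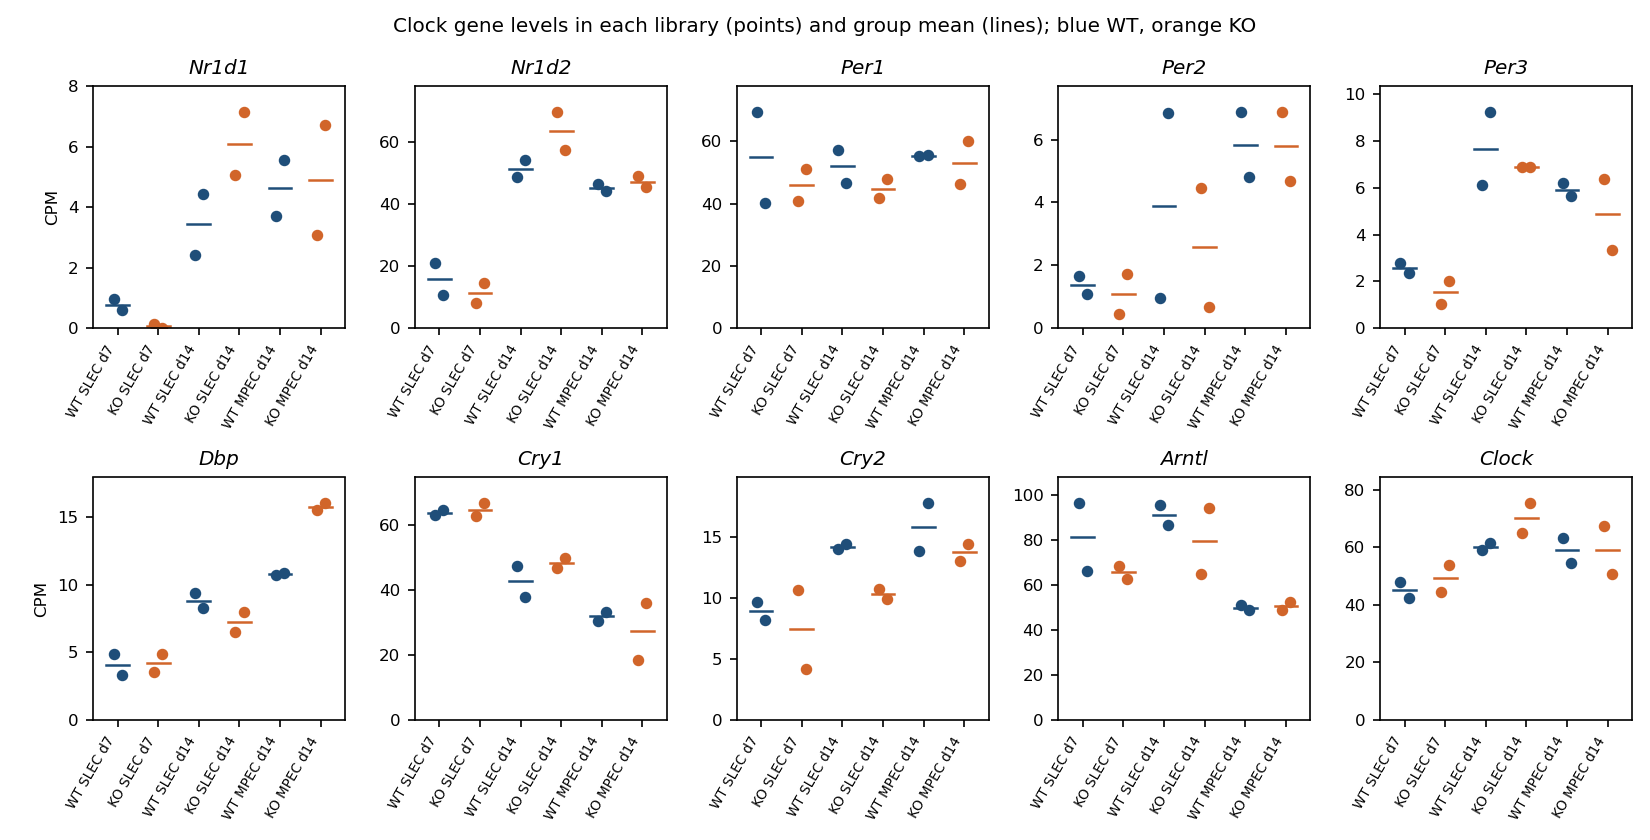
Level of each clock gene in CPM (vertical axes, linear from 0) in the 12 libraries; points are libraries, lines are means of the 2 libraries of a group, blue is WT and orange is KO. *Dbp* climbs and *Cry1* descends over the 3 populations with no overlap between them, while *Per1* lies between 40.3 and 69.4 CPM throughout. The share of all genes with no overlap over the 3 populations was not computed.

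The first comparison sets SLEC on day 14 against SLEC on day 7, that is, after the peak of the response against near it. Averaged over WT and KO, 5 of the 10 clock genes rose (*Nr1d1*, *Nr1d2*, *Per3*, *Dbp* and *Clock*), *Cry1* fell, and *Per1*, *Per2*, *Cry2* and *Arntl* did not pass the test. The 6 calls stand beside 25.1% of all 14460 tested genes called in this comparison at an adjusted p under 0.05. For the same 6 genes the 4 libraries of one day did not overlap the 4 of the other, beside 23.8% of all tested genes. The median log2 change was 0.75 over the 10 genes and 0.02 over all tested genes. Since the genes were proposed with results of these libraries known, the calls describe these libraries and no more. In bulk RNA a change in which cells are present and a change in RNA per cell cannot be told apart. Adjusted p-values throughout are from edgeR's quasi-likelihood test with Benjamini-Hochberg adjustment over all tested genes.

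*Nr1d2* encodes REV-ERB-beta, a nuclear receptor that represses transcription. Its level was 21.1 and 10.6 CPM in WT SLEC on day 7, 8.03 and 14.7 CPM in KO SLEC on day 7, 48.6 and 54.0 CPM in WT SLEC on day 14, and 69.5 and 57.4 CPM in KO SLEC on day 14. All 4 day 14 libraries lay above all 4 day 7 libraries. The log2 change averaged over genotypes was 2.11 ± 0.20 (SE), a 4.32-fold rise with an adjusted p of 1.04e-06. It was 1.70 ± 0.27 in WT (adjusted p = 0.000722) and 2.53 ± 0.29 in KO (adjusted p = 3.27e-05). Without the first WT SLEC day 7 library, the highest of that day, the *Nr1d2* change in WT was 2.28. In MPEC on day 14 *Nr1d2* was 46.4 and 44.0 CPM in WT and 48.9 and 45.4 CPM in KO, within a narrow range next to the SLEC of that day.

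*Nr1d1* encodes the paralog REV-ERB-alpha and was far scarcer. Its counts in the 2 libraries of a group were 12 and 8 in WT SLEC on day 7 and 2 and 0 in KO SLEC on day 7. On day 14 they were 33 and 70 in WT SLEC and 50 and 52 in KO SLEC. The WT MPEC libraries had 49 and 59 counts, and the KO MPEC libraries 30 and 70. In CPM the day 7 libraries ran from 0 to 0.954 and the SLEC day 14 libraries from 2.43 to 7.15, with no overlap. The log2 change averaged over genotypes was 4.05 ± 0.66 (SE, adjusted p = 0.000147), and it rests in part on the 2 counts of the KO day 7 group. The ratio of scaled counts, day 14 to day 7, was 4.49 in WT, with a 95% counting interval of 2.76 to 7.65. In KO it was 69.1, with an interval of 18.6 to 578. By the test the KO rise passed (log2 change 5.95 ± 1.09, adjusted p = 0.000901), and the WT value did not (2.14 ± 0.69, adjusted p = 0.054), though it did by DESeq2 (2.14 ± 0.70, adjusted p = 0.0251) and without the filter on low counts (adjusted p = 0.0292). Both calls held in all 12 omissions of a library. Without the first KO SLEC day 7 library, which holds the 2 *Nr1d1* counts, that group is at 0, and the fitted value of 9.10 in KO and 5.62 over the genotypes depends on the prior count. The difference between the 2 genotypes did not pass (3.81 ± 1.76, adjusted p = 0.736).

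*Nr1d1* shares 263 exon bases, 8.55% of its exons, with *Thra*, the thyroid hormone receptor alpha gene on the opposite strand. The library kit keeps strand, but the sources used here do not give the strand setting of the counting. *Thra* itself rose from day 7 to day 14 in SLEC, by 1.53 ± 0.26 on the log2 scale (SE, adjusted p = 0.000354), with 62 counts in KO SLEC on day 7 where *Nr1d1* had 2. In MPEC against SLEC on day 14 *Thra* was higher by 0.68 ± 0.21 (adjusted p = 0.0342), while *Nr1d1* differed by 0.05 ± 0.34 (adjusted p = 0.947). The part of shared reads in the *Nr1d1* counts was not tested. *Nr1d2* overlaps no other annotated gene.

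Of the 3 period genes, which encode the repressors that give the clock its delay, only *Per3* passed. *Per3* was 2.78 and 2.38 CPM in WT SLEC on day 7, 1.04 and 2.04 CPM in KO SLEC on day 7, 6.11 and 9.24 CPM in WT SLEC on day 14, and 6.88 and 6.87 CPM in KO SLEC on day 14. The days did not overlap in either genotype. The log2 rise was 1.90 ± 0.35 over the genotypes (SE, adjusted p = 0.000603), 1.58 ± 0.43 in WT (adjusted p = 0.025) and 2.22 ± 0.55 in KO (adjusted p = 0.01). The WT call was lost without either WT SLEC day 7 library or the second WT SLEC day 14 library, and the KO call without the first KO SLEC day 7 library or either KO SLEC day 14 library. Over all alternatives the log2 value ran from 0.70 to 1.86 in WT and from 1.73 to 2.71 in KO, and the adjusted p reached 0.865 and 0.0975. The call over the genotypes held in all 12 omissions of a library.

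*Per1*, the period gene that responds fastest to hormones and other signals, was 69.4 and 40.3 CPM in WT SLEC on day 7, 40.7 and 51.2 CPM in KO SLEC on day 7, 57.3 and 46.5 CPM in WT SLEC on day 14, and 41.7 and 47.8 CPM in KO SLEC on day 14. The days overlapped fully. Its log2 difference was -0.06 ± 0.16 (adjusted p = 0.832), with a 95% interval from -0.40 to 0.28.

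*Per2*, a period gene needed for lasting rhythms in mice, varied so much between libraries of 1 group that its level cannot be placed. In SLEC on day 14 it had 13 and 108 counts in the WT libraries and 44 and 5 counts in the KO libraries. The scaled ratio within WT was 7.14, with a 95% counting interval of 4.01 to 13.8, and within KO 6.48, with an interval of 2.58 to 20.9. These intervals treat reads as independent molecules, which low-input libraries do not hold to. On day 7 it was 1.67 and 1.08 CPM in WT and 0.446 and 1.73 CPM in KO, and in MPEC 6.87 and 4.81 CPM in WT and 6.88 and 4.70 CPM in KO. The 4 MPEC libraries thus lay above the 4 day 7 SLEC libraries, with the day 14 SLEC libraries spread across both. The share of all tested genes with no overlap between MPEC and the day 7 SLEC was not computed. The log2 difference between the days was 1.53 ± 0.69 (adjusted p = 0.121). Without the filter on low counts it was 1.53 ± 0.48 and passed (adjusted p = 0.0156). With a term for B cell RNA it was -0.88 ± 0.96 (adjusted p = 0.615). In WT this term can hardly be told apart from the day. The B cell sums of the WT SLEC day 14 libraries were 390 and 1478 CPM, in the order of the counts. Those of the KO libraries were 51.5 and 21.99 CPM, also in the order of the counts. In KO SLEC on day 7 and in WT MPEC, too, the library with the higher sum had the higher *Per2* level. In WT SLEC on day 7 and in KO MPEC the library with the higher sum had the lower *Per2* level. The part of B cell RNA in this spread was not tested. The fitted biological coefficient of variation was 0.59 for *Per2*, the highest of the 10 genes, and 0.14 for *Clock*, the lowest.

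*Dbp*, the output factor of the PAR bZIP family, was 4.85 and 3.30 CPM in WT SLEC on day 7, 3.57 and 4.90 CPM in KO SLEC on day 7, 9.35 and 8.29 CPM in WT SLEC on day 14, and 6.48 and 7.97 CPM in KO SLEC on day 14. All day 14 values lay above all day 7 values. The rise over the genotypes was 0.95 ± 0.26 on the log2 scale (SE, adjusted p = 0.013), with 1.11 ± 0.34 in WT (adjusted p = 0.0469) and 0.78 ± 0.40 in KO (adjusted p = 0.19). The WT call sits close to the threshold and held in 3 of 12 omissions of a library, those of the first WT and of either KO SLEC day 7 library. It also ended without the filter on low counts (adjusted p = 0.0584). Over all alternatives its log2 value was 0.87 to 1.74 and its adjusted p reached 0.479. The call over the genotypes was lost without the first KO SLEC day 7 library or the second KO SLEC day 14 library, at an adjusted p of up to 0.0811 over all alternatives. *Dbp* shares 539 exon bases, 18% of its exons, with *Sphk2* on the opposite strand, a sphingosine kinase gene at 21.6 ± 1.02 CPM in WT SLEC on day 7 and 27.5 ± 0.38 CPM on day 14 (SD, n = 2); its change between the days over the genotypes was 0.27 ± 0.16 on the log2 scale (adjusted p = 0.241).

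*Cry1*, which encodes the strongest repressor of the ARNTL and CLOCK pair, moved the other way. It was 62.9 and 64.6 CPM in WT SLEC on day 7 and 62.7 and 66.5 CPM in KO SLEC on day 7. On day 14 it was 47.3 and 37.8 CPM in WT SLEC and 46.5 and 49.9 CPM in KO SLEC. The 4 day 7 libraries agreed within a few CPM and all lay above day 14. The fall over the genotypes was -0.50 ± 0.16 on the log2 scale (SE, adjusted p = 0.0232), and in either genotype alone it did not pass, at -0.59 ± 0.22 in WT (adjusted p = 0.0974) and -0.42 ± 0.22 in KO (adjusted p = 0.209). The call was lost without the second KO SLEC day 7 library, the second WT SLEC day 14 library or either KO SLEC day 14 library, with a log2 value from -0.58 to -0.34 over all alternatives. *Cry2*, its weaker paralog, was 9.62 and 8.14 CPM in WT and 10.6 and 4.18 CPM in KO on day 7, and 14.0 and 14.4 CPM in WT and 10.7 and 9.89 CPM in KO on day 14. The KO groups overlapped, and the log2 difference of 0.55 ± 0.25 did not pass (adjusted p = 0.114).

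Of the 2 activators *Clock* rose and *Arntl* did not pass. *Clock* on day 7 was 47.8 and 42.2 CPM (WT SLEC) and 44.5 and 53.9 CPM (KO SLEC), against 59.0 and 61.3 CPM in WT and 65.0 and 75.2 CPM in KO on day 14. These values did not overlap, and the rise of 0.47 ± 0.13 on the log2 scale over the genotypes passed (adjusted p = 0.0129). That call was lost without the first KO SLEC day 7 library, the second WT SLEC day 14 library or the second KO SLEC day 14 library, and the log2 value ran from 0.39 to 0.54 over all alternatives. *Arntl* was 96.2 and 66.1 CPM in WT and 68.4 and 62.8 CPM in KO on day 7, and 95.8 and 86.6 CPM in WT and 65.1 and 94.4 CPM in KO on day 14. The groups overlapped, and its log2 difference of 0.22 ± 0.14 did not pass (adjusted p = 0.266).

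**Figure D2:**
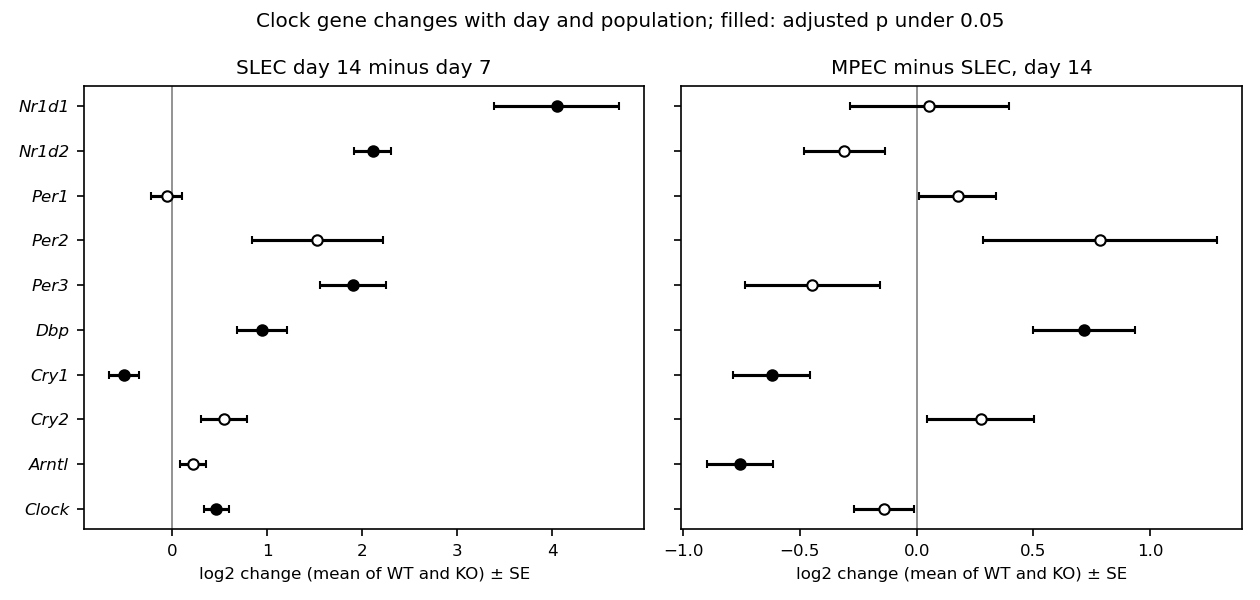
Log2 change of each clock gene averaged over WT and KO, SLEC day 14 minus day 7 (left) and MPEC minus SLEC on day 14 (right, on its own axis), with bars of 1 SE; filled points passed an adjusted p under 0.05. *Nr1d1* at 4.05 and *Nr1d2* at 2.11 lead on the left, and *Arntl* at -0.76 and *Dbp* at 0.72 lie at opposite ends of the called genes on the right.

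Within each genotype, 3 of the 10 genes rose from day 7 to day 14 and none fell. In WT these were *Nr1d2*, *Per3* and *Dbp*, where 9.94% of all tested genes were called. In KO they were *Nr1d1*, *Nr1d2* and *Per3*, where 17.2% were called. The difference in calls between the genotypes was tested as the change of the KO effect from day 7 to day 14. By edgeR 0 of the 10 genes passed it and by DESeq2 0, beside 0.00692% of all tested genes called. At an unadjusted p under 0.05 there was 1 gene, *Nr1d1*, beside 6.58% of all tested genes.

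Other measures moved with the day. All 10 mitosis genes fell from day 7 to day 14, with a median log2 change of -4.45. Of the day 7 libraries, the first WT library had the lowest mitosis sum, 911 CPM, and the highest *Nr1d2* value, 21.1 CPM. It was also the highest of that day for *Per1* (69.4 CPM) and *Arntl* (96.2 CPM). The second WT library had a mitosis sum of 2524 CPM beside 10.6 CPM of *Nr1d2*. The KO libraries had sums of 2150 and 1936 CPM beside 8.03 and 14.7 CPM of *Nr1d2*. The part of cell division in the changes of clock genes was not tested. The B cell sum was 51.5 and 21.99 CPM in KO SLEC on day 14 against 44.2 and 54.6 CPM in KO SLEC on day 7. The part of B cell RNA in the changes between the days was not tested. A fit with a term for B cell RNA was run as an alternative only. In WT the B cell sum was 19.6 and 48.6 CPM on day 7 and 390 and 1478 CPM on day 14. The myeloid sum in WT was 21.9 and 29.1 CPM on day 7 and 91.1 and 44.6 CPM on day 14, and no term was fitted for it. With a term for B cell RNA in the model the *Nr1d2* change in WT was 1.70 ± 0.66 (SE) on the log2 scale, against 1.70 ± 0.27 without it. It no longer passed (adjusted p = 0.336, the highest among its alternatives). The B cell sums of the 2 days did not overlap in WT, so the term and the day can hardly be told apart there. The comparison over the genotypes includes these WT groups. A call lost with the term therefore decides nothing about B cell RNA. *Per3* in WT went from 1.58 ± 0.43 to 0.70 ± 1.04 (adjusted p = 0.865). *Dbp* in WT went from 1.11 ± 0.34 to 1.74 ± 0.85 (adjusted p = 0.479), and neither passed with the term. *Nr1d1* in WT, which had not passed, went from 2.14 ± 0.69 to 1.83 ± 1.52 (adjusted p = 0.717). Over the genotypes the calls of *Nr1d1* and *Nr1d2* held with that term. The other 4 were lost, at a log2 change of 1.5 ± 0.57 for *Per3*, 1.23 ± 0.44 for *Dbp*, 0.51 ± 0.23 for *Clock* and -0.34 ± 0.28 for *Cry1*.

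Ratios of 2 clock genes within a library do not depend on how libraries are scaled. Each pair here sets a gene that rose between the days against a gene that fell or did not pass. The separation of the ratios thus restates those changes, and other pairs of genes were not set beside it. The ratio of *Nr1d2* to *Arntl* counts was 0.220 and 0.160 in WT SLEC and 0.118 and 0.234 in KO SLEC on day 7. On day 14 it was 0.507 and 0.624 in WT SLEC and 1.07 and 0.608 in KO SLEC. The MPEC libraries gave 0.907 and 0.903 (WT) and 1 and 0.867 (KO). All 8 day 14 libraries lay above all 4 day 7 libraries. For *Nr1d2* to *Cry1* the ratio was 0.128 to 0.336 in the 4 day 7 libraries, 1.03 to 1.49 in SLEC on day 14 and 1.26 to 2.67 in MPEC. On day 7, then, *Nr1d2* had fewer counts than *Cry1* in every library, and on day 14 more in all 8.

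**Figure D3:**
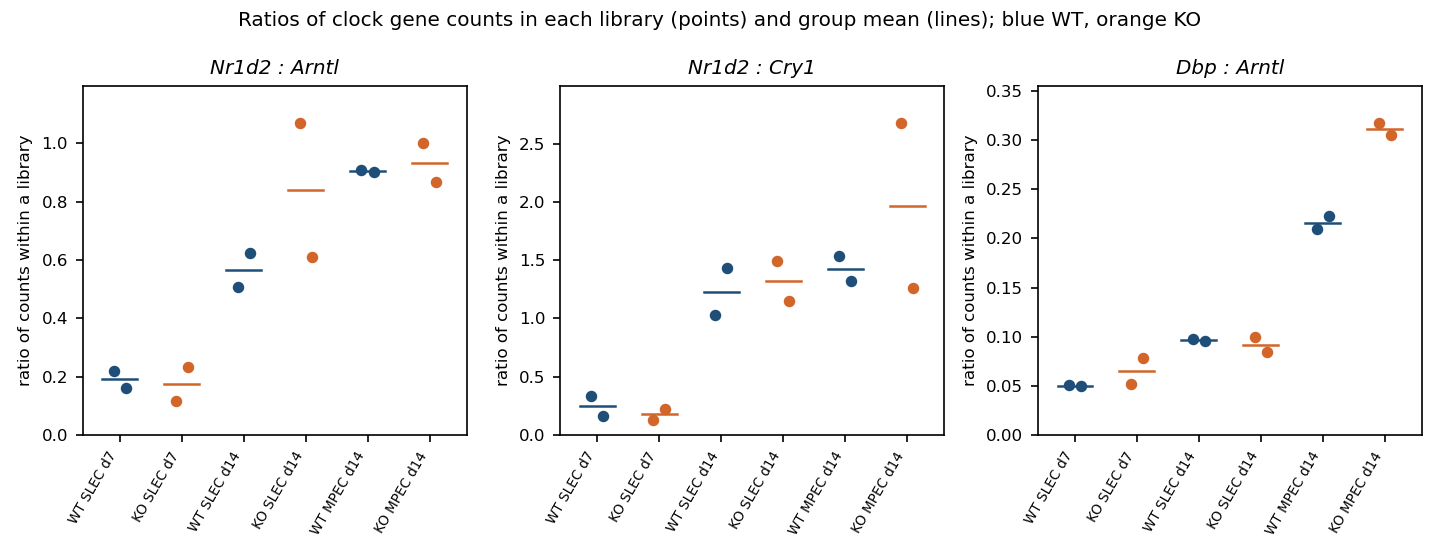
Ratio of the counts of 2 clock genes within each library (vertical axes, linear from 0); points are libraries, lines are means of the 2 libraries of a group, blue is WT and orange is KO. *Nr1d2* to *Arntl* is at most 0.234 on day 7 and at least 0.507 on day 14, and *Dbp* to *Arntl* is at most 0.0995 in SLEC and at least 0.210 in MPEC.

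The second comparison sets MPEC, which hold the precursors of memory cells, against SLEC on day 14. Averaged over WT and KO, *Dbp* was higher in MPEC while *Arntl* and *Cry1* were lower, and the other 7 clock genes did not pass. These 3 calls stand beside 13.1% of all tested genes. The same 3 genes had no overlap between the 4 MPEC and the 4 SLEC libraries, beside 19.4% of all tested genes. The median log2 difference was -0.04 over the 10 genes and -0.01 over all tested genes. This comparison shares the SLEC day 14 libraries with the one between days, so the 2 are not independent.

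*Arntl* was 51.1 and 48.7 CPM in WT MPEC and 48.9 and 52.4 CPM in KO MPEC, against 65.1 to 95.8 CPM in the SLEC of that day. The 4 MPEC values lay close together and below all SLEC values. The log2 difference over the genotypes was -0.76 ± 0.14 (SE, adjusted p = 0.00119), and the call held in every omission of a library and in every other alternative run. In WT alone it was -0.87 ± 0.20 (adjusted p = 0.0101), the 1 clock gene called there beside 7.96% of all genes. That WT call was lost without the first WT SLEC day 14 library or either WT MPEC library, and its adjusted p ranged up to 0.131 over its alternatives. In KO the *Arntl* value of -0.64 ± 0.20 did not pass (adjusted p = 0.0806), though it did by DESeq2 (adjusted p = 0.0388) and without the filter on low counts (0.0361).

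*Dbp* was 10.7 and 10.8 CPM in WT MPEC and 15.5 and 16.0 CPM in KO MPEC, above all 4 SLEC libraries of that day, which ran from 6.48 to 9.35 CPM. The log2 difference over the genotypes was 0.72 ± 0.22 (SE, adjusted p = 0.0363). In KO it was 1.14 ± 0.32 (adjusted p = 0.0477), the 1 clock gene called there beside 5.11% of all genes, and in WT it was 0.29 ± 0.29 (adjusted p = 0.636). Both calls lie near the threshold: over the genotypes it held in 4 of 12 omissions, and it was lost without any 1 of the 8 day 14 libraries, with a log2 value of 0.63 to 0.78 over all alternatives. DESeq2 (adjusted p = 0.0525) and the fit without the filter on low counts (0.065) also ended it, within a range of 0.0256 to 0.169 over its alternatives. The KO call of *Dbp* was ended without the filter and with the term for B cell RNA, and it held in 4 of 12 omissions. It survived the loss of any day 7 library and of no day 14 library, with a log2 value of 0.98 to 1.38. The difference of the KO effect between MPEC and SLEC was 0.85 ± 0.44 for *Dbp* (adjusted p = 1, unadjusted p = 0.0693), beside 0% of all tested genes called in that contrast. *Sphk2*, which shares exon bases with *Dbp*, was also highest in KO MPEC, at 34.96 ± 1.53 CPM (SD, n = 2) against 26.3 ± 8.03 CPM in KO SLEC on day 14. Its log2 difference, MPEC minus SLEC, was 0.39 ± 0.23 in KO (adjusted p = 0.416) and 0.22 ± 0.16 over the genotypes (adjusted p = 0.43). The part of shared reads in the *Dbp* counts was not tested.

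*Cry1* was 30.3 and 33.3 CPM in WT MPEC and 18.3 and 36.0 CPM in KO MPEC, all below the 37.8 to 49.9 CPM of the SLEC on that day. Its log2 difference did not pass in WT (-0.42 ± 0.23, adjusted p = 0.307) or in KO (-0.82 ± 0.24, adjusted p = 0.0577). The KO value did pass by DESeq2 (adjusted p = 0.0231) and without the filter on low counts (adjusted p = 0.0104). The difference over the genotypes was -0.62 ± 0.17 on the log2 scale (SE, adjusted p = 0.0166). It was lost without the first WT SLEC, the second KO SLEC, the first WT MPEC or the first KO MPEC library of day 14, and the log2 value ran from -0.91 to -0.42 over all alternatives. The values of *Dbp* and *Cry1* thus fall in opposite orders over the 3 populations with no overlap between any 2 of them. The share of all tested genes with no overlap over the 3 was not computed. It was 23.8% between the days in SLEC and 19.4% between MPEC and SLEC on day 14. MPEC on day 14 was not tested against SLEC on day 7. From SLEC on day 7 through SLEC on day 14 to MPEC on day 14, *Dbp* was 3.30 to 4.90, 6.48 to 9.35 and 10.7 to 16.0 CPM, and *Cry1* was 62.7 to 66.5, 37.8 to 49.9 and 18.3 to 36.0 CPM.

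The other 7 genes did not pass between the populations. *Nr1d1* lay between 3.08 and 6.71 CPM in the 4 MPEC libraries, within the range of the SLEC of that day. *Nr1d2* was lower in MPEC by -0.31 ± 0.17 on the log2 scale (adjusted p = 0.28), with a 95% interval from -0.67 to 0.06. *Per3* was 6.19 and 5.65 CPM in WT MPEC and 6.37 and 3.36 CPM in KO MPEC, a log2 difference of -0.45 ± 0.29 (adjusted p = 0.364). *Per1* was 55.3 and 55.5 CPM in WT MPEC and 46.3 and 60.02 CPM in KO MPEC (0.18 ± 0.16, adjusted p = 0.557), and *Per2* differed by 0.78 ± 0.50 (adjusted p = 0.361). *Cry2* was 13.8 and 17.7 CPM in WT MPEC and 13.0 and 14.4 CPM in KO MPEC (0.27 ± 0.23, adjusted p = 0.506). *Clock* was 63.1 and 54.7 CPM in WT MPEC and 67.2 and 50.6 CPM in KO MPEC (-0.14 ± 0.13, adjusted p = 0.552). The B cell sum was 250 and 135 CPM in WT MPEC and 115 and 129 CPM in KO MPEC, between the WT and KO SLEC of that day. With the term for B cell RNA, the same number of genes, 3, was called over the genotypes.

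The third comparison asks whether loss of *Rroid2* changes the clock genes. None of the 10 passed in any population by edgeR's quasi-likelihood test. On day 7 in SLEC 0 of 10 were called, beside 0.0277% of all tested genes, on day 14 in SLEC 0, beside 0.546%, in MPEC 0, beside 0.0138%, and as a mean over the 3 populations 0, beside 0.083%. DESeq2 also called 0 in each. At an unadjusted p under 0.05 there were 0 of the 10 in each of these 4 contrasts, beside 3.37%, 12.5%, 2.46% and 8.26% of all tested genes in the same order.

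The sizes that remain possible differ by gene. For *Clock* the 95% interval of the mean log2 difference, KO minus WT, ran from -0.11 to 0.33, for *Arntl* from -0.40 to 0.08, for *Cry1* from -0.28 to 0.27 and for *Nr1d2* from -0.38 to 0.28. For *Per2* it ran from -1.45 to 0.78 and for *Nr1d1* from -2.12 to 0.70, so wide differences in level were not detectable for these scarce transcripts. The gene with the largest value was *Nr1d1* in SLEC on day 7, at 20 counts over the 2 WT libraries and 2 over the KO libraries. The WT to KO ratio of scaled counts was 9.08, with a 95% counting interval of 2.21 to 80.1. The test over libraries gave a log2 difference of -3.03 ± 1.74 (adjusted p = 1, unadjusted p = 0.0826). On day 14 *Nr1d1* in SLEC was 3.43 ± 1.41 CPM for WT and 6.10 ± 1.48 CPM for KO (SD, n = 2), the opposite direction, and that difference did not pass (0.77 ± 0.48, adjusted p = 0.551).

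Non-overlap of the KO and WT libraries was frequent among all genes and is no result about the clock genes. In SLEC on day 7 both KO libraries lay below both WT libraries for 2 of the 10 genes (*Nr1d1* and *Per3*), beside 23.4% of all tested genes whose groups did not overlap. In SLEC on day 14 the groups did not overlap for 5 genes, beside 47.6% of all: KO was above WT for *Nr1d1*, *Nr1d2* and *Clock* and below it for *Dbp* and *Cry2*. In MPEC 1 gene, *Dbp*, did not overlap, beside 30.1% of all. *Dbp* was thus higher in both KO libraries of MPEC (0.55 ± 0.28 on the log2 scale, adjusted p = 1) and lower in both KO libraries of SLEC on day 14 (-0.30 ± 0.34, adjusted p = 0.789), and neither passed. For *Cry2* in SLEC on day 14 the levels were 10.3 ± 0.59 CPM in KO and 14.2 ± 0.27 CPM in WT (SD, n = 2, log2 difference -0.45 ± 0.33, adjusted p = 0.648). The B cell sum was higher in WT on that day (390 and 1478 CPM against 51.5 and 21.99 CPM in KO), and its part in these differences was not tested.

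**Figure D4:**
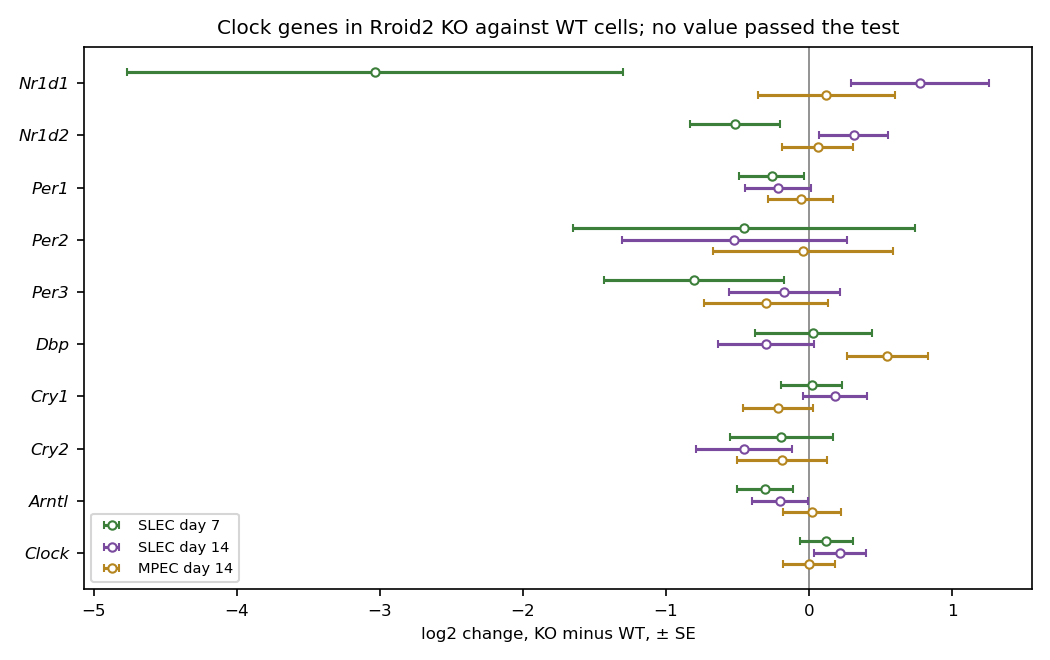
Log2 change of each clock gene, KO minus WT, in SLEC day 7, SLEC day 14 and MPEC day 14, with bars of 1 SE; open points did not pass an adjusted p under 0.05. All 30 points are open, and the bars of *Nr1d1* on day 7 (SE 1.74) and of *Per2* on day 7 (SE 1.2) are the widest.

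Genes that work around the core loop were counted from lists of their own. Of 16 other loop factors and outputs, 12 were tested; *Tef* and *Rora* rose from day 7 to day 14 in SLEC, *Wee1* fell and 9 did not pass. These 3 of 12 stand beside 25.1% of all tested genes, the same share. *Tef*, a close relative of *Dbp* in the PAR bZIP family, went from 11.7 ± 3.49 CPM in WT and 9.50 ± 0.28 CPM in KO on day 7 to 45.9 ± 2.33 and 33.9 ± 4.18 CPM on day 14 (SD, n = 2). Its log2 rise was 1.91 ± 0.18 (SE, adjusted p = 1.04e-06), which places it beside *Nr1d2* in size. In MPEC *Tef* was lower than in SLEC by -0.82 ± 0.17 (adjusted p = 0.00246), the opposite sign to *Dbp*. *Rora*, which encodes the activator that competes with the NR1D proteins at ROR elements, rose by 0.45 ± 0.12 between the days (adjusted p = 0.0102). It was lower in MPEC by -1.21 ± 0.12 (adjusted p = 2.41e-06). *Bhlhe40*, a repressor that binds E-boxes, was lower in MPEC by -2.21 ± 0.27 (adjusted p = 0.00067), and these 3 were the genes of that list called there, beside 13.1% of all tested genes, with none higher and 9 not passing. *Wee1*, a cell cycle kinase and clock output, fell between the days by -1.37 ± 0.33 (adjusted p = 0.00493).

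Of 10 kinases and ubiquitin ligases that set the stability of PER and CRY proteins, 9 were tested. *Gsk3b* (0.54 ± 0.11 on the log2 scale, adjusted p = 0.00114) and *Btrc* (0.61 ± 0.20, adjusted p = 0.029) rose between the days, *Csnk2b*, the regulatory subunit of casein kinase 2, fell (-0.96 ± 0.11, adjusted p = 8.67e-06), and 6 did not pass. All 10 co-regulators were tested, of which 3 rose and 3 fell. The 3 of 9 and the 6 of 10 stand beside 25.1% of all tested genes. Among them the acetyltransferase genes *Crebbp* (0.79 ± 0.11, adjusted p = 4.75e-05) and *Ep300* (0.43 ± 0.10, adjusted p = 0.0048) rose, while *Hdac3*, the deacetylase that works with NR1D proteins, fell (-0.61 ± 0.14, adjusted p = 0.00314), as did *Sfpq* (-0.38 ± 0.09, adjusted p = 0.00664). Between MPEC and SLEC none of these 19 genes passed. The medians of the 3 lists between the days were -0.11, -0.02 and -0.01, against 0.02 over all tested genes.

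Hormone and stimulus genes were counted because *Per1* responds to both kinds of signal. Of 9 glucocorticoid-induced genes 1 rose between the days and 4 fell, with *Fkbp5* at -0.69 ± 0.13 (adjusted p = 0.000678) and *Mt1* at -2.75 ± 0.49 (adjusted p = 0.000695) on the log2 scale, while *Sgk1* rose by 0.48 ± 0.15 (adjusted p = 0.0265). Of 12 immediate early genes 11 were tested, of which *Egr1* (-1.16 ± 0.36, adjusted p = 0.0394) and *Nr4a2* (-1.62 ± 0.49, adjusted p = 0.0367) fell, none rose and 9 did not pass. The 5 of 9 and the 2 of 11 stand beside 25.1% of all tested genes called, 11.4% higher and 13.7% lower. *Per1* itself did not pass in any of the 12 contrasts.

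Over the 12 libraries the genes whose log2 CPM ran most like that of a clock gene were ranked among 7995 genes, as a description; the libraries fall into populations, which all these genes share. For *Nr1d1* they were *Pja2* (Pearson r = 0.97), *Eif2ak4*, *Btaf1*, *Nxpe3* and *Zfp652* (0.95), and for *Dbp* they were *Tut1* (0.96), *Sesn3*, *Mov10*, *Senp6* and *Map3k14* (0.95). For *Arntl* they were *Chd7* (0.96), *Rab33b*, *Slc44a2*, *Dubr* and *Sept8* (0.94). For *Per1* the values were lower, from *Ier5* (0.90) through *Dnajb9*, *Dop1b* and *Rrad* to *Dnajb1* (0.84). Among the clock genes themselves, *Nr1d2* was closest to *Nr1d1* (r = 0.90, rank 118), and *Cry1* ran opposite to *Dbp* (r = -0.87, rank 165 from the bottom). *Arntl* and *Nr1d1* showed an r of -0.09, and *Arntl* and *Dbp* one of -0.41.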

How the data were processed

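RNA was sequenced from 12 libraries made with a stranded low-input kit, per the labels' protocols. Values in the deposited table are raw counts of reads for each gene. The authors used bcl2fastq and STAR 2.6.1a with GRCm38, per the submitters' processing notes, while the sources used here name no counting program or strand setting. Columns were matched to groups by the names in the labels. The 10 clock genes were found by symbol, and positions, exon lengths and overlaps came from GENCODE M21 of GRCm38 by identifier (54673 of 55421 matched). The members and all gene lists were chosen with earlier results of these data known.

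The analysis ran edgeR 4.0.16 in R 4.3.3: filterByExpr (minimum count 10, minimum total 15), TMM factors, 1 coefficient for each of the 6 groups, robust quasi-likelihood fit over all 12 libraries (6 residual degrees of freedom), two-sided tests in 12 contrasts, and Benjamini-Hochberg adjustment over 14460 genes at 0.05. SE is the log2 change over the square root of the F statistic. CPM use the TMM-scaled library size; log2 CPM for likeness used a prior count of 2 and genes with a mean of 3 or more. Every library kept at least 99.7% of its counts. Intervals of count ratios are exact binomial at 95% and cover counting error only, since reads are not independent molecules. Named were all members, up to 4 called genes per list and comparison by smallest adjusted p, and the 5 most alike genes of 4 members. Alternatives were DESeq2 1.42.0, RLE factors, no filter, a replicate block, a term for B cell RNA and each library left out. The pipeline was tested on simulated data. No label ties a library to an animal, and p-values measure the spread between libraries, which may be technical; no 2 libraries agreed within counting noise. Counting overlapping genes without strand would mix their reads.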

Additional observations from a re-analysis of the deposited data

How the results depend on the processing

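Of 204 recomputed counts of called clock genes (12 contrasts under 17 alternatives), 180 stayed within 1.5 times the value reported and 24 moved. Where the B cell sums of the compared groups do not overlap, the term for B cell RNA can hardly be told apart from the group. With that term the count fell from 3 to 0 between the days in WT, from 6 to 2 over the genotypes and from 1 to 0 in MPEC against SLEC in KO. That last count was 2 without the filter on low counts (*Dbp* not among them), 3 by DESeq2 and 0 with the replicate block. With 1 library left out, the counts ran from 1 to 4 between the days in WT, from 3 to 7 over the genotypes, from 0 to 1 in MPEC against SLEC in WT, from 0 to 3 in KO and from 1 to 3 over the genotypes. Where an omission leaves 1 library in a group, that library is assumed to vary like the others. The cause was not tested. All counts in KO against WT stayed at 0 in every alternative run.

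Of 2040 values of single genes, 1858 kept their direction and their side of the threshold, 61 lost a call, 21 gained one, 100 uncalled values changed sign and 0 called values did. RLE factors moved the median of all genes by at most 0.012 on the log2 scale. The labels do not say whether the replicate numbers pair the libraries. Over 15 pairs of groups the correlation of same-numbered deviations in the 2000 most variable genes ran from -0.21 to 0.12, with 1 over 0.1. Low values over these genes do not exclude a pairing. The replicate block changed 3 of 120 gene results. Both single-genotype *Dbp* calls were lost and *Nr1d1* between the days in WT gained one (adjusted p = 0.0418). Depth limits *Nr1d1*, *Per2* and *Per3* most, at 0 to 146 counts per library.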
